A study of Mus musculus with 16 samples.

Results

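The red cell volume and cation transport genes examined here are 6 genes of the 46078 listed in the deposited counts, chosen by name and by what their products do. They are the mechanosensitive channel gene *Piezo1*, the Gardos channel gene *Kcnn4*, the potassium-chloride cotransporter genes *Slc12a4* and *Slc12a7*, and the plasma membrane calcium pump genes *Atp2b1* and *Atp2b4*. RNA was sequenced from polychromatic erythroblasts (Poly-E) and orthochromatic erythroblasts (Ortho-E), 2 successive stages of late red cell maturation, sorted with Ter119 and CD44 from steady-state bone marrow of mice. *Ypel4*-/- mice were homozygous for Ypel4<tm1a(EUCOMM)Wtsi>, a gene-trap allele that acts in all cells, and *Ypel4*+/+ mice were labelled wild-type. The labels give all animals the same strain, on C57BL/6N-A<tm1Brd>, and no age or treatment. Each of the 4 groups held 4 libraries, and tests between them measure the spread between these libraries. Libraries of the same genotype and replicate number are read here as the Poly-E and Ortho-E cells of the same mouse.

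A red cell sets its volume by the ions it lets in and out. PIEZO1 opens when the membrane is stretched and lets calcium enter, the pumps encoded by *Atp2b1* and *Atp2b4* drive calcium back out, and calcium that stays opens the Gardos channel encoded by *Kcnn4*, through which potassium and then water leave. The cotransporters KCC1 (*Slc12a4*) and KCC4 (*Slc12a7*) carry potassium and chloride out together. Altered *PIEZO1* or *KCNN4* in people underlies hereditary xerocytosis, in which red cells lose water, and PMCA4, the product of *Atp2b4*, is the main calcium pump of the mature red cell.

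Libraries held 2670173 to 12451234 counts, and no pair held identical values. Counts of the targeted gene, *Ypel4*, were 2531 to 9080 in wild-type against 65 to 283 in mutant Poly-E, and for Ortho-E they were 7757 to 23326 against 388 to 1161. The late erythroid markers were present in all groups, with a summed level of 47282 to 58610 CPM in Poly-E and 195354 to 262381 in Ortho-E. CPM is the count of a gene relative to the size of its library, here after scaling between libraries by the trimmed mean of M-values (TMM). Markers of other marrow cells were low but stood higher in Ortho-E on this TMM scale. Their sums were not computed with library totals alone, so the direction of this difference was not tested against scaling. The 10 granulocyte and monocyte markers summed to 1.96 to 5.27 CPM in Poly-E and 4.45 to 20.8 in Ortho-E, with *Elane* at 0 in the Ortho-E of both genotypes. The 6 macrophage markers summed to 1.94 to 4.86 and 4.93 to 11.8 CPM, and the 4 B lymphocyte markers to 11.2 to 25.1 and 18.8 to 39.2. The 3 T lymphocyte markers did not exceed 0.45 CPM and the 4 endothelial markers 3.0, and the 5 megakaryocyte and platelet markers, the highest of these lists, summed to 26.7 to 35.6 CPM in Poly-E and to 89.99 to 113 in Ortho-E. Most of that sum was *Itga2b*, with a mean of 20.8 CPM in wild-type Poly-E and 95.9 in wild-type Ortho-E, and *Gp9* had 10.45 and 11.03, while *Gp1bb* was at 0 in all groups and *Pf4* in Ortho-E. The part of other cells in the results was not tested, and in sorted bulk samples fewer cells of a type and less RNA per cell cannot be told apart.

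Gene positions are those of the deposited counts on GRCm38, and GENCODE M21 lists all of them as protein-coding. *Piezo1* (ENSMUSG00000014444) lies on the minus strand at chr8:122481698-122551329 and has 9933 exonic bases. *Kcnn4* (ENSMUSG00000054342) is at chr7:24370263-24385209 on the plus strand with 2034 exonic bases. *Slc12a4* (ENSMUSG00000017765), at chr8:105943590-105966115 on the minus strand, has 4297 exonic bases, and *Slc12a7* (ENSMUSG00000017756), at chr13:73763697-73816743 on the plus strand, has 5131. *Atp2b1* (ENSMUSG00000019943) is at chr10:98915152-99026143 on the plus strand with 7130 exonic bases, and *Atp2b4* (ENSMUSG00000026463) at chr1:133699457-133801041 on the minus strand with 12248. The exons of *Piezo1* share 2441 bases, 24.6% of its exonic length, with *Ctu2* on the opposite strand. Counting was not strand-specific and left out reads on exons of 2 genes, so those bases are missing from the *Piezo1* counts. *Slc12a4* shares 361 bases, 8.4%, with *Gm16156* in the same way. Levels and shares per kb below divide by the full exonic length, so those of *Piezo1* and *Slc12a4* may read low.

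All 6 genes had an entry in the RefSeq promoter table for GRCm38.p6, which gave 8 windows because *Atp2b1* and *Slc12a7* had 2 starts each. The 250 bases before the start are shown for the calcium pump genes and for the channel genes. No link between these windows and the expression of the genes was tested. Capitals mark matches, on either strand, to the GATA motif (GATA with A or T before it and A or G after it) or to CCNCNCCC, a motif of KLF factors. The *Atp2b4* window is chr1:133753748-133753997, the *Atp2b1* window chr10:98914902-98915151, the *Kcnn4* window chr7:24370013-24370262 and the *Piezo1* window chr8:122551330-122551579, each printed on the gene's own strand.
Atp2b4: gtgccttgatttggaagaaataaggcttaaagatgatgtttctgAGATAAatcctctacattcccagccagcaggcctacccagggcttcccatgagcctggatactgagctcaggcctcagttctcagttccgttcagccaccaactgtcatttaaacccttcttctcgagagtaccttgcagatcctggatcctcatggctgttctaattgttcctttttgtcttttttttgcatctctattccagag
Atp2b1: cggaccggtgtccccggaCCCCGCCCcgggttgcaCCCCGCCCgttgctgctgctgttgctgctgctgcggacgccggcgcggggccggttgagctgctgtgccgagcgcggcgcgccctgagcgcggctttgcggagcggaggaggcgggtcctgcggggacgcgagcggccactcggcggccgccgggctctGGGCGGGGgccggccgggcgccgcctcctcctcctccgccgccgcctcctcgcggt
Kcnn4: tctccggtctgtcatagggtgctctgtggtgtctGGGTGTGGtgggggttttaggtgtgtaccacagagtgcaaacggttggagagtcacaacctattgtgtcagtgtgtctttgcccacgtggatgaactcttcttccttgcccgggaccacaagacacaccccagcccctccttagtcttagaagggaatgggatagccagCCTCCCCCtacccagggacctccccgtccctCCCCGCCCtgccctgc
Piezo1: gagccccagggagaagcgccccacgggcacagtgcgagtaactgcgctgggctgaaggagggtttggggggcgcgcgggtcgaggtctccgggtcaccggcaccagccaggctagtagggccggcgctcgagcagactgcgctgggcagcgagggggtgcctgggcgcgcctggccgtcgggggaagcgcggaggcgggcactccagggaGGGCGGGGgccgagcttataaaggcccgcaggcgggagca

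The windows of the 2 calcium pump genes differed in base composition. That of *Atp2b4* was 45.6% G and C, lower than the median of 52.4% over all 32817 windows. The printed window of *Atp2b1* was 80.8%, with 99% of all windows below it, and its other window, not printed, was 78.4%, with 98.1% below it. *Atp2b4* had the only GATA match among the 8 windows, 206 bases before the start, while 26.6% of all windows held such a match. CCNCNCCC was found in each of the other 7 windows and not in that of *Atp2b4*, and 45.9% of all windows held it. *Kcnn4* had 3 such matches, 216, 47 and 16 bases before the start, and *Piezo1* had 1, at 40 bases. The *Atp2b4* window lies inside the gene, 47.3 kb from the most upstream start, and 2 of its 8 GENCODE transcripts begin at the base that follows it. The deposited counts add up all transcripts of a gene, so use of the separate starts was not analysed here.

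The 6 genes covered a wide range of levels, and their order per exonic kilobase was the same in all groups. In *Ypel4*+/+ Poly-E, *Kcnn4* was highest with 176 ± 34.2 CPM per kb (SD, n = 4), followed by *Atp2b4* with 64.9 ± 4.14. *Piezo1* had 9.05 ± 1.82, *Atp2b1* 4.46 ± 0.515 and *Slc12a4* 1.59 ± 0.527 CPM per kb. *Slc12a7* was at the limit of detection, with 12 counts over all 16 libraries and at most 3 in any of them. The ranges of neighbours in this order did not overlap in any group, except those of *Slc12a4* and *Slc12a7* in *Ypel4*-/- Ortho-E. For Ortho-E of the same genotype the corresponding levels were 232 ± 37.8 for *Kcnn4*, 132 ± 9.14 for *Atp2b4*, 3.59 ± 0.802 for *Piezo1*, 0.883 ± 0.31 for *Atp2b1* and 0.187 ± 0.0735 CPM per kb for *Slc12a4*.

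As a share of the summed counts per kb of the 6 genes, which does not depend on how libraries are scaled, *Kcnn4* held 63.3 to 71.1% in wild-type Poly-E libraries and 59.01 to 66.0% in wild-type Ortho-E libraries. These ranges overlapped, while those of *Ypel4*-/-, 66.3 to 71.4% and 56.7 to 64.2%, did not. The *Atp2b4* share was 23.1 to 30.7% in wild-type Poly-E and 32.8 to 39.6% in Ortho-E, and in *Ypel4*-/- it was 23.4 to 26.9% and 34.4 to 42.0%, without overlap in either genotype. *Piezo1* held 2.95 to 3.797% of the wild-type Poly-E sum and 0.791 to 1.12% of the Ortho-E sum. *Atp2b1* held 1.54 to 1.91% and 0.142 to 0.369%. Between populations the shares of *Piezo1* and *Atp2b1* thus went down and that of *Atp2b4* went up.

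**Figure D1:**
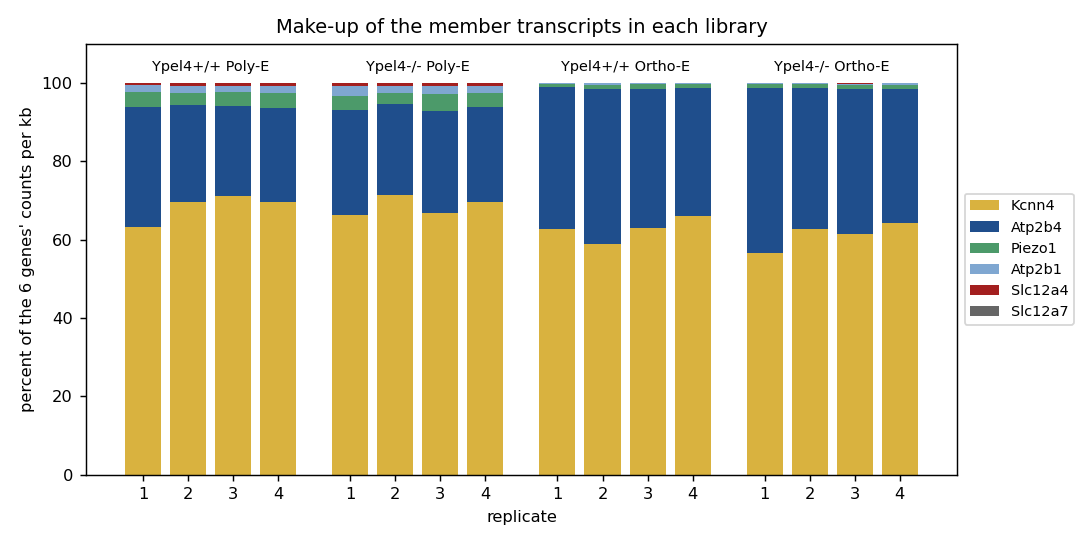
Share of each gene in the summed counts per kb of the 6 genes (y axis, percent) for the 16 libraries (x axis, replicate number within each group). *Kcnn4* and *Atp2b4* fill most of each bar, and the *Atp2b4* share is larger in each Ortho-E library than in any Poly-E library of the same genotype, 32.8 to 39.6% against 23.1 to 30.7% in *Ypel4*+/+ and 34.4 to 42.0% against 23.4 to 26.9% in *Ypel4*-/-.

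The comparison of Ortho-E with Poly-E asks how expression of the set changes in late maturation. *Slc12a7* fell under the minimum of 10 counts in these fits, and the 5 other members were all called in both genotypes by edgeR (quasi-likelihood test, p-values adjusted over all genes by Benjamini-Hochberg). *Piezo1*, *Atp2b1* and *Slc12a4* were lower in Ortho-E under each of the 4 ways of scaling, and *Atp2b4* and *Kcnn4* were higher with TMM but not with library totals alone. Calls were common in this comparison: 58.5% of all genes tested in *Ypel4*+/+ were called, 26.4% as higher and 32.1% as lower in Ortho-E, and 61% in *Ypel4*-/-, 29.5% as higher and 31.5% as lower. Being called does not therefore set the members apart, and their sizes and directions are given below. The members' median log2 fold change was -1.29 for wild-type mice, beside -0.19 for all genes tested, and -1.06 for *Ypel4*-/- mice, beside -0.09.

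Among the channels, *Piezo1* had 79.4, 69.9, 107.6 and 102.5 CPM in replicates 1 to 4 of *Ypel4*+/+ Poly-E and 26.2, 32.6, 44.3 and 39.7 in the Ortho-E of the same mice. Each Ortho-E library was below each Poly-E library. The log2 fold change was -1.29 (SE 0.166, edgeR adjusted p = 2.65e-07), or 2.44-fold lower. The mutant libraries went from 76.3, 64.6, 105.8 and 103.1 CPM to 30.2, 33.4, 41.8 and 44.2, again without overlap. The log2 fold change of *Piezo1* was then -1.06 (SE 0.163, edgeR adjusted p = 1.61e-06).

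*Kcnn4*, whose channel acts downstream of calcium entry through PIEZO1, did not follow *Piezo1*. In *Ypel4*+/+ mice it had 271.1, 337.0, 431.9 and 390.7 CPM in Poly-E, against 425.9, 390.6, 509.2 and 559.4 in Ortho-E. These ranges overlapped, but Ortho-E was the higher in each of the 4 mice, by 0.21 to 0.65 on the log2 scale. Among *Ypel4*-/- mice it had 283.2, 340.8, 328.8 and 396.8 CPM in Poly-E, against 334.3, 496.3, 484.6 and 557.5 in Ortho-E, with Ortho-E again the higher in 4 of 4 mice. The fitted log2 fold changes were 0.43 (SE 0.142, edgeR adjusted p = 0.0106) in *Ypel4*+/+ and 0.63 (SE 0.135, edgeR adjusted p = 1.45e-04) in *Ypel4*-/-. With library totals in place of TMM they turned to -0.85 (adjusted p = 2.21e-05) and -0.78 (adjusted p = 7.60e-07), and Ortho-E was lower in 8 of 8 mice.

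The calcium pump genes moved apart. *Atp2b4* rose with TMM from 791.9, 726.1, 844.9 and 816.3 CPM in *Ypel4*+/+ Poly-E to 1475, 1577, 1731 and 1672 in Ortho-E, and every Ortho-E library was above every Poly-E library. The log2 fold change was 1.06 (SE 0.116, edgeR adjusted p = 9.70e-09), and -0.22 (adjusted p = 0.0694) with library totals alone. The *Atp2b4* level in *Ypel4*-/- mice was 691.1, 674.1, 772.8 and 833.2 CPM in Poly-E, against 1494, 1725, 1759 and 1795 in Ortho-E, again without overlap. There the log2 fold change was 1.35 (SE 0.118, edgeR adjusted p = 5.99e-12), and -0.06 (adjusted p = 0.578) with library totals alone.

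*Atp2b1*, the calcium pump gene of most other tissues, fell. Its levels in *Ypel4*+/+ mice were 26.6, 32.5, 32.8 and 35.2 CPM in Poly-E, against 3.38, 8.57, 6.00 and 7.23 in Ortho-E. The mutant levels were 38.2, 28.6, 32.6 and 36.5 CPM in Poly-E, against 5.40, 6.31, 7.56 and 9.65 in Ortho-E. No Ortho-E library reached the lowest Poly-E library in either genotype. The log2 fold change was -2.31 (SE 0.210, edgeR adjusted p = 2.89e-10) in *Ypel4*+/+, or 4.95-fold lower, and -2.03 (SE 0.189, edgeR adjusted p = 2.65e-11) in *Ypel4*-/-. With library totals alone it was -3.59 and -3.44.

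Since both pump genes were counted in the same libraries, their ratio per kb does not depend on scaling. *Atp2b4* exceeded *Atp2b1* 17.3, 13.0, 15 and 13.5 times in the wild-type Poly-E libraries and 239, 104, 163 and 132 times in their Ortho-E counterparts. For *Ypel4*-/- the ratio was 10.5, 13.7, 13.8 and 13.3 in Poly-E, against 155, 155, 133 and 107 in Ortho-E. The ratio was thus 10.4 times higher in Ortho-E in *Ypel4*+/+ and 10.7 times in *Ypel4*-/-, with no overlap between the populations. In an exact two-sided permutation test p was 0.0286 in each genotype, the smallest that 4 against 4 libraries allow, and 0.0571 after adjustment over 8 comparisons. Between genotypes the ranges of the ratio overlapped in both populations (exact p = 0.257, adjusted 0.343, for Poly-E, and exact p = 0.571, adjusted 0.653, for Ortho-E).

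**Figure D2:**
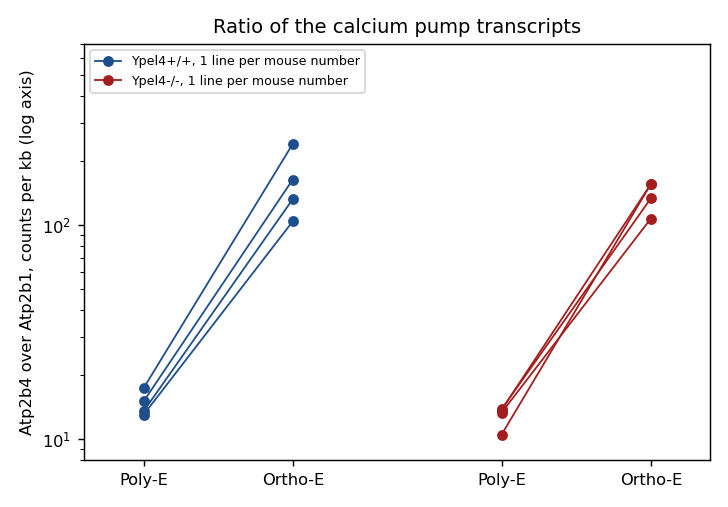
Ratio of *Atp2b4* to *Atp2b1* in counts per kb (y axis, log scale) in Poly-E and Ortho-E, with a line for each mouse number of *Ypel4*+/+ (blue) and *Ypel4*-/- (red). All 8 lines rise, from 10.5 to 17.3 in Poly-E to 104 to 239 in Ortho-E, and the ranges of the genotypes overlap in each population.

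The potassium-chloride cotransporter genes were the least expressed members. *Slc12a4* had 3.59, 7.16, 8.74 and 7.91 CPM in *Ypel4*+/+ Poly-E, from 20 to 132 counts, and 1.27, 0.571, 0.666 and 0.700 in Ortho-E, from 1 to 3 counts. Mutant Poly-E libraries had 6.24, 7.29, 7.73 and 7.97 CPM, and in Ortho-E 0, 0.742, 2.63 and 0.772 CPM from 0 to 8 counts. The populations did not overlap, with a log2 fold change of -3.09 (SE 0.429, edgeR adjusted p = 5.65e-07) in *Ypel4*+/+ and -2.63 (SE 0.395, edgeR adjusted p = 6.26e-07) in *Ypel4*-/-. The size of this fall is loosely set, because the Ortho-E level rests on 9 counts in *Ypel4*+/+ and 14 in *Ypel4*-/- over all libraries of the group.

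*Slc12a7* gave 7 counts over the 4 wild-type Poly-E libraries and 2 over the mutant ones. Ortho-E libraries gave 1 count in the wild type and 2 in the mutant, and no change could be detected at this depth. The ratio of *Slc12a7* to *Slc12a4*, computed with 0.5 counts added to both, was 2.73 higher in Ortho-E on the log2 scale for wild-type mice and 4.52 higher for *Ypel4*-/- mice (exact p = 0.0286, adjusted p = 0.0571 in each). With *Slc12a7* at 0 or 1 count in each Ortho-E library, these values are set by the added counts and by the fall of *Slc12a4*.

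**Figure D3:**
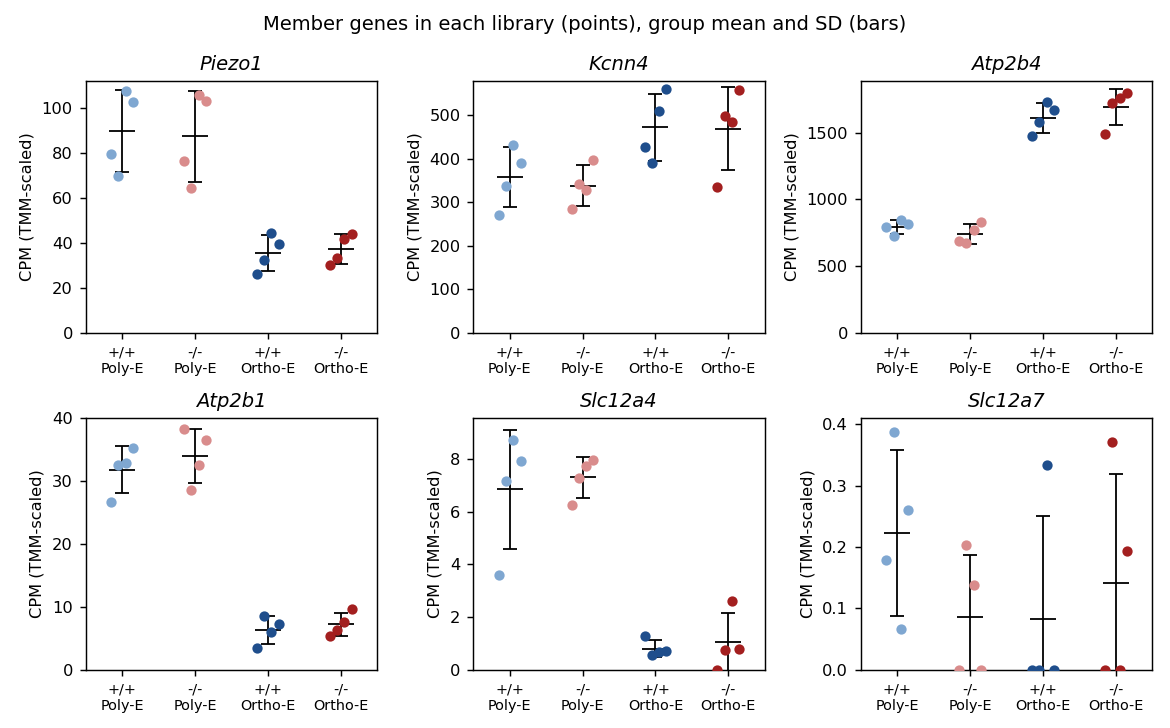
CPM after TMM scaling (y axes, linear from 0) of the 6 genes in the 4 groups, with a point for each library, a bar at the mean and error bars of 1 SD (n = 4). *Piezo1*, *Atp2b1* and *Slc12a4* are lower in Ortho-E without overlap, *Atp2b4* is higher without overlap on this scale, *Kcnn4* overlaps, and *Slc12a7* stays below 0.4 CPM.

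Some directions between Poly-E and Ortho-E depended on the scaling. Globin genes took 5.39 to 6.46% of Poly-E counts and 10.8 to 13.96% of Ortho-E counts, and with globin genes left out of the table TMM kept every direction of the members. With library totals alone, the median log2 fold change of all genes shifted from -0.19 to -1.45 for the wild type and for *Ypel4*-/- from -0.09 to -1.48. The calls then split into 1217 higher and 7087 lower, in place of 3101 and 3773, in *Ypel4*+/+, and into 1337 and 7289, in place of 3538 and 3767, in *Ypel4*-/-. A change of scaling moves all genes of a comparison by nearly the same amount, so a member's distance from the median is kept by construction and does not bear on its direction. *Kcnn4* lay 0.63 above it with TMM and 0.60 above it with library totals in *Ypel4*+/+, and *Atp2b4* 1.25 and 1.23 above it. *Piezo1* lay 1.09 and 1.12 below it.

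**Figure D4:**
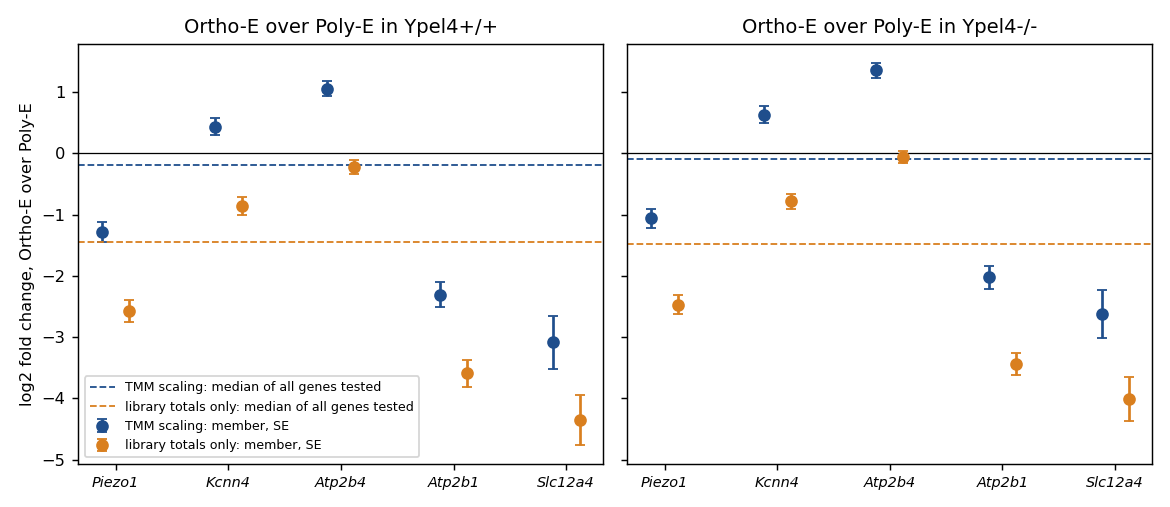
Log2 fold change of Ortho-E over Poly-E (y axis) for the 5 members tested, in *Ypel4*+/+ (left) and *Ypel4*-/- (right), with TMM scaling (blue) and with library totals alone (orange). Error bars are SE, and dashed lines are the median of all genes tested. *Kcnn4* and *Atp2b4* lie above the dashed line of their own scaling in both panels but below 0 with library totals, and the other 3 lie below both.

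The comparison of genotypes asks whether loss of *Ypel4* changes these genes. Of the 5 members tested, edgeR called 0 in either population, 0 had an unadjusted p below 0.05, and 0 were called with DESeq2. The background was as low, with 0.00807% of genes called in Poly-E, which was *Ypel4* itself, and 0.0285% in Ortho-E. With the replicate number as a block, 4 genes were called in Poly-E, and again no member. The 3 Ortho-E genes were *Ypel4*, *En2* and *Gm19426*. The paper names *En2* as the splice acceptor of the gene trap, so its change was anticipated there. *En2* had 0 counts in wild-type and 34 to 125 in mutant Ortho-E libraries. The members' median log2 fold change was -0.04 for Poly-E, beside 0.00 for all genes tested, and 0.09 for Ortho-E, beside 0.01.

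The intervals show which differences these libraries could have held. In Poly-E the 95% interval of *Ypel4*-/- over *Ypel4*+/+ ran from 19.3% lower to 8.74% higher for *Atp2b4*, from 22.5% lower to 15% higher for *Kcnn4* and from 24.4% lower to 25.8% higher for *Piezo1*. For *Atp2b1* it ran from 11.1% lower to 29.1% higher, and for *Slc12a4* from 24% lower to 43.1% higher. In Ortho-E it was narrowest for *Atp2b4*, from 6.63% lower to 20.9% higher, and for *Kcnn4*, from 15% lower to 18.7% higher. *Piezo1* followed, from 16.1% lower to 32.8% higher. The intervals of the low genes were wide in Ortho-E, from 19.7% lower to 79.9% higher for *Atp2b1* and from 53.8% lower to 288% higher for *Slc12a4*.

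**Figure D5:**
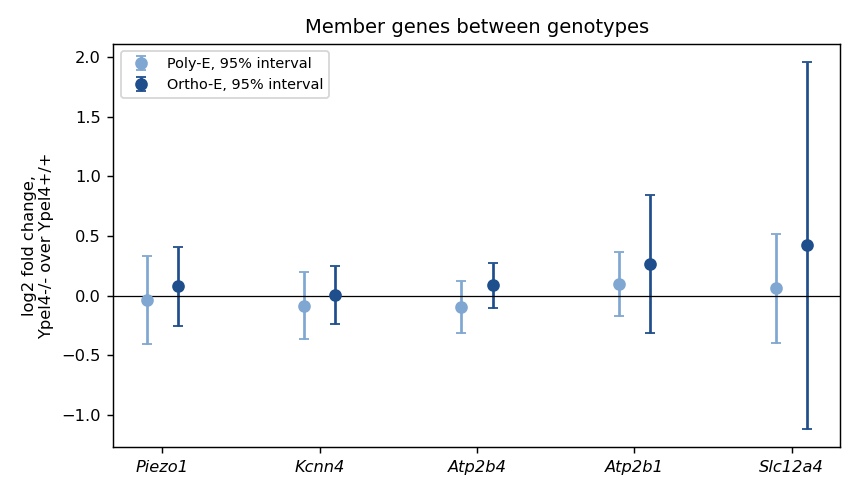
Log2 fold change of *Ypel4*-/- over *Ypel4*+/+ (y axis) for the 5 members tested in Poly-E (light) and Ortho-E (dark), with 95% intervals from edgeR. All intervals cross 0, and that of *Slc12a4* in Ortho-E, from -1.11 to 1.95, is the widest.

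Whether the change from Poly-E to Ortho-E differed between genotypes was tested as an interaction over all 16 libraries, which kept *Slc12a7*. No member was called or reached an unadjusted p below 0.05, and 0% of the 13318 genes tested were called by edgeR, with 363 at an unadjusted p under 0.05 and 1 called by DESeq2. The interaction was 0.17 for *Atp2b4* (95% interval -0.15 to 0.49), 0.08 for *Kcnn4* (-0.36 to 0.51), 0.11 for *Piezo1* (-0.41 to 0.62) and 0.17 for *Atp2b1* (-0.43 to 0.77) on the log2 scale. That of *Slc12a4* was 0.36 (-1.07 to 1.80), and that of *Slc12a7*, 2.16 (-1.59 to 5.92), rests on 12 counts.

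Replicates differed within groups in a way that genotype and population do not describe. In each of the 4 groups, *Piezo1* was lower in replicates 1 and 2 than in replicates 3 and 4, for example 69.9 to 79.4 against 102.5 to 107.6 CPM in *Ypel4*+/+ Poly-E and 64.6 to 76.3 against 103.1 to 105.8 in *Ypel4*-/- Poly-E. *Atp2b4* showed the same in each group with a smaller gap, as did 7.84% of the 5279 genes whose mean count was 50 or more. *Slc12a4* showed it in 3 groups, *Kcnn4* and *Atp2b1* in 2 and *Slc12a7* in none. Replicates 3 and 4 also had the larger total counts in all 4 groups, and the part of depth was not tested. With a term for these replicates, chosen after seeing the data, the same 5 members were called between populations and none between genotypes.

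The wider set of 45 genes around the members was described in the same fits, and edgeR called none of those tested between genotypes or in the interaction. Under the alternatives run, *Lrrc8d* was the one gene of the set called there (values below). Between populations in *Ypel4*+/+, 11 of the 29 tested were called higher and 10 lower in Ortho-E, 72.4% beside 58.5% of all genes, and with library totals 8 higher and 15 lower. For *Ypel4*-/- mice 15 of 31 were higher and 10 lower, 80.6% beside 61%, and with library totals 7 higher and 16 lower.

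Of the 6 sodium pump subunit genes 4 were tested, and 3 of them fell in Ortho-E in both genotypes under TMM and library totals. The median of the 4 was -0.71 in *Ypel4*+/+, beside -0.19 for all genes. *Atp1b2* had the largest fall, with a log2 fold change of -1.81 (SE 0.364, edgeR adjusted p = 1.10e-04) in *Ypel4*+/+ and -1.53 (SE 0.322, edgeR adjusted p = 1.13e-04) in *Ypel4*-/-. Of the 7 genes for sodium entry and the volume-regulated anion channel 5 were tested, and in *Ypel4*+/+ 1 was called higher and 3 lower. *Lrrc8b*, a subunit of that channel, fell by 2.08 on the log2 scale (SE 0.502, edgeR adjusted p = 0.0012).

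The call for *Lrrc8d*, another subunit, rests on libraries that differ widely. It had 2, 98, 447 and 849 counts in *Ypel4*+/+ Ortho-E and at most 37 in any other library, with a log2 fold change of 6.38 (SE 1.31, edgeR adjusted p = 0.00551) in *Ypel4*+/+. For *Ypel4*-/- the value was -0.16 (adjusted p = 0.758), and with library totals -1.55 (adjusted p = 0.00113). Between genotypes in Ortho-E *Lrrc8d* had a log2 fold change of -5.98 (SE 1.45), 63-fold lower in *Ypel4*-/-, and edgeR did not call it (adjusted p = 0.995). It was called by DESeq2, at -6.06 (adjusted p = 0.00104), and by edgeR with the replicate block, at -6.19 (adjusted p = 6.29e-73). In this comparison the block joins the genotypes by replicate number, and the Ortho-E libraries were not paired in that way. The deviations of same-numbered libraries correlated at -0.093 to 0.304, so the small p of the block is not a firm measure. The interaction, -6.63 (SE 1.70, edgeR adjusted p = 1.00), was called by DESeq2 (adjusted p = 0.00239) and by edgeR without *Ypel4*+/+ Ortho-E replicate 1, the library with 2 counts (-7.03, adjusted p = 3.81e-04), and not with the block (adjusted p = 0.72). The paper, showing mapped reads at the *Gm19426* and *Lrrc8d* loci, considered such called genes to be false positives. The source of these reads was not tested here.

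Of the WNK and SPAK/OSR1 kinases, which set the activity of the cotransporters by phosphorylation, 3 of 6 were tested, 2 of them called higher and 1 lower with TMM, and 1 and 1 with library totals. *Wnk1* rose from 55.2 to 268 CPM per kb in *Ypel4*+/+, a log2 fold change of 2.31 (SE 0.128, edgeR adjusted p = 1.95e-14). *Oxsr1*, which encodes the kinase OSR1, fell by 1.25 on the log2 scale (SE 0.162, edgeR adjusted p = 1.87e-07). Calmodulin is the calcium sensor of both the Gardos channel and the pumps, and 2 of its 3 genes fell, *Calm3* the most, with a log2 fold change of -1.32 (SE 0.122, edgeR adjusted p = 3.89e-10). *Wnk1*, *Oxsr1* and *Calm3* kept these directions with library totals.

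Of the 6 genes for calcium pumps and release channels of the endoplasmic reticulum 5 were tested, and in *Ypel4*+/+ 1 rose and 1 fell. In *Ypel4*-/- 4 rose and 1 fell, but no interaction was called, and *Itpr3* and *Itpr1*, named for their values, had log2 fold changes of 0.96 and 0.87 in *Ypel4*+/+ (adjusted p = 0.0941 and 0.108) beside 1.20 and 1.21 in *Ypel4*-/-. With library totals 1 rose and 2 fell in each genotype. *Atp2a2*, which encodes the pump SERCA2, fell by 1.72 on the log2 scale (SE 0.155, edgeR adjusted p = 8.47e-10), and *Itpr2*, an inositol trisphosphate receptor gene, rose by 2.48 (SE 0.225, edgeR adjusted p = 1.82e-09). Of the 4 water and urea channels 3 were tested. In *Ypel4*+/+ 2 rose with TMM, while with library totals 1 rose and 2 fell. *Aqp9*, a channel for water and glycerol, rose by 3.06 (SE 0.156, edgeR adjusted p = 1.50e-14). *Aqp1*, the main red cell water channel, was not called with TMM in *Ypel4*+/+, at 0.19 (SE 0.131). It was called lower with library totals and higher with DESeq2 size factors, so its direction depends on the scaling. Of the 5 red cell cation leak genes 4 were tested. In *Ypel4*+/+ 3 rose with TMM, while with library totals 2 rose and 1 fell. With TMM *Rhag*, a subunit of the Rh complex, rose the most, by 1.71 (SE 0.128, edgeR adjusted p = 6.09e-12). *Itpr2*, *Aqp9* and *Rhag* were higher with library totals as well, by 1.20, 1.79 and 0.43.

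The genes whose log2 CPM followed each member most closely over the 16 libraries were found among 5278 others whose mean count was 50 or more (5279 for *Slc12a4*, itself below that mean). *Atp2a2* (Pearson r = 0.989), *Eif3b* (0.989) and *Hdac1* (0.988) were most like *Piezo1*. *Mpv17l2* (0.991), *Wee1* (0.991) and *Tmx4* (0.989) were most like *Atp2b1*, and *Ubald1* (0.996), *Ythdc1* (0.995) and *Usp4* (0.995) most like *Atp2b4*. For *Slc12a4* they were *Mapk9* (0.965), *2310033P09Rik* (0.964) and *Ipmk* (0.959). The libraries fall into Poly-E and Ortho-E, so a gene that differs between them correlates with many others, and r exceeded 0.9 for 1284 genes with *Piezo1*, 1717 with *Atp2b1*, 1372 with *Atp2b4* and 495 with *Slc12a4*. *Kcnn4* was matched by fewer, 29 genes, with *1190002F15Rik* (0.957), *Cope* (0.948) and *Cbx7* (0.948) the closest. For *Slc12a7* the closest gene reached 0.798, and the counts were too few to read a pattern.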

How the data were processed

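Total RNA of sorted Poly-E and Ortho-E cells, wild-type and *Ypel4*-/-, was sequenced with an unstranded kit. The authors mapped reads to GRCm38 with nf-core/rnaseq and deposited raw counts of read pairs per gene from featureCounts 1.6.4. Multi-mapping reads and reads on more than one gene were not counted, and nothing was normalized. All 16 libraries were used, with groups from the sample titles. Depth was 2670173 to 12451234 counts.

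The members, gene lists and tests were chosen with earlier results of these data known. The main test was edgeR 4.0.16 in R 4.3.3, by robust quasi-likelihood after TMM scaling. A gene entered a fit if its libraries summed to 10 counts or more, p-values were adjusted by Benjamini-Hochberg over all genes, and calls were made at 0.05. Populations were compared within each genotype, genotypes within each population, and the interaction over all libraries. CPM on one TMM scale over 16 libraries was divided by exonic length for levels. Ratios used 0.5 added counts and exact permutation tests. The fits were also run on simulated counts with few changed genes, as many up as down, and without pairing of libraries. That setting did not test the scaling between populations.

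Named genes were all members, *Ypel4*, in each other list the called gene with the largest rise and the largest fall in *Ypel4*+/+ and any gene called between genotypes, and for each member the 3 genes with the highest Pearson r. *Aqp1*, *Atp2a3*, *Itpr1* and *Itpr3* were named after their values were seen. The list of paralogs of the members is not reported here.

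Same-numbered libraries of a genotype share a mouse number in the deposited names. The correlation of their deviations from the group means over 5279 genes was 0.416 to 0.605 for the wild type, for *Ypel4*-/- it was 0.083 to 0.505, and each was closest to its own number. Between genotypes it ranged from 0.233 to 0.632 in Poly-E, taken as paired, and from -0.093 to 0.304 in Ortho-E, not paired. The sample titles give only a replicate number and do not pair mice of different genotypes. The pairing of Poly-E is weakly borne out. In each population only 2 mutant libraries were closest to their own number. Correlations between different numbers reached 0.591 in Poly-E and 0.255 in Ortho-E. Alternatives were DESeq2 1.42.0, its size factors, library totals, TMM without globin genes, filterByExpr, no filter, all 16 libraries in one fit, a replicate block and each library left out in turn.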

Additional observations from a re-analysis of the deposited data

Results flagged for a closer look

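Values of 4 libraries of a group were examined for 17 genes and for 2 ratios, 76 sets in all, for a highest or lowest library set apart from the other 3. Chance alone marks about 1 in 20, or 3.8 sets, and 6 were marked. In *Ypel4*-/- Poly-E the log2 ratio of *Atp2b4* to *Atp2b1* was 3.39 in replicate 1 and 3.73 to 3.79 in the others. *Slc12a7* stood at 0.333 CPM in replicate 3 of *Ypel4*+/+ Ortho-E, which is 1 count, and at 0 in the other libraries of the group. *Wnk1* was at 1062 CPM in replicate 1 of *Ypel4*+/+ Poly-E and at 800 to 812 in the others, and *Oxsr1* at 32.7 CPM in replicate 4 of *Ypel4*+/+ Ortho-E and at 22 to 23 in the others. *Atp1b2* was at 5.25 CPM in replicate 4 of *Ypel4*-/- Poly-E against 7.69 to 8.07, and *Aqp9* at 551 CPM in replicate 4 of *Ypel4*-/- Ortho-E against 520 to 521.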

How the results depend on the processing

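Between populations the falls of *Piezo1*, *Atp2b1* and *Slc12a4* kept their direction and their call under all alternatives run, in both genotypes. With library totals *Atp2b4* turned to -0.22 in *Ypel4*+/+ and -0.063 in *Ypel4*-/-, and *Kcnn4* to -0.85 and -0.78, as the median of all genes moved to -1.45 and -1.48, and the other alternatives kept both higher and called. Between genotypes and in the interaction no member was called under any alternative run. The filterByExpr filter left no *Slc12a4* value between genotypes in Ortho-E. Uncalled values near 0 changed sign. *Piezo1* in Poly-E was 0.014 with library totals, and *Kcnn4* in Ortho-E was -0.0096 in the fit of all 16 libraries and -0.00083 with the replicate block. Leaving out each library in turn, the log2 difference between genotypes ranged in Poly-E from -0.13 to 0.084 for *Piezo1*, -0.19 to 0.01 for *Kcnn4* and -0.12 to 0.21 for *Slc12a4*, and in Ortho-E from -0.030 to 0.22, -0.066 to 0.12 and -0.44 to 0.70. The interaction ranged from -0.012 to 0.30 for *Piezo1*, -0.020 to 0.28 for *Kcnn4*, -0.47 to 0.65 for *Slc12a4* and -0.045 to 0.32 for *Atp2b1*. The log2 ratios between genotypes in Ortho-E ranged from -0.35 to 0.052 for *Atp2b4* to *Atp2b1* and from -0.15 to 1.21 for *Slc12a7* to *Slc12a4*, and *Lrrc8d* between populations in *Ypel4*-/- from -0.40 to 0.031. No pseudocount of 0 could be used where a library had no count.

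Of all genes, 1 was called between genotypes in Poly-E and 4 with no filter, 2 with DESeq2, 3 in the fit of all 16 libraries, 4 with the replicate block, 3 with the term for replicates 1 and 2 against 3 and 4 (chosen after seeing the data), and 1 to 2 leaving out each library, with 2 without *Ypel4*-/- Poly-E replicate 1. In Ortho-E 3 were called, 5 with no filter, 13 with the block and 3 to 4 leaving out each library. There the block joins genotypes by replicate number, although same-numbered Ortho-E libraries were not paired between genotypes. In the interaction 0 were called, 1 with DESeq2, 1 with the block, and 0 to 1 leaving out each library, with 1 without *Ypel4*+/+ Ortho-E replicate 1. The gene called in the interaction by DESeq2 and without that library was *Lrrc8d*. The cause was not tested. The replicate block changed no call of a member, and the sign-flip test of 4 pairs cannot go below 0.125. Depth limits *Slc12a7* everywhere and *Slc12a4* and *Atp2b1* in Ortho-E.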
